A study of Mus musculus with 16 samples.

Results

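The antioxidant and NRF2 target genes are 36 genes grouped by function: NRF2 itself (gene symbol Nfe2l2) and its inhibitor Keap1, 3 superoxide dismutases, catalase and 3 glutathione peroxidases, 6 peroxiredoxins with sulfiredoxin, 5 genes of the thioredoxin system, 6 of glutathione synthesis and recycling, Nqo1 and Hmox1, 5 glutathione transferases and 2 metallothioneins. Members were taken by symbol, and all 36 were found in each of the 4 deposited tables, which together list 23222 genes. RNA was sequenced from myofibers of the extensor digitorum longus, a fast hindlimb muscle, after the attached mononucleated cells had been removed. The mice were male C57BL/6 and carried no stated mutation. The 4 groups, of 4 libraries each, were old runners (22 months of age, 5 weeks of voluntary wheel running), old controls (22 months, no running), young runners (4 months, 5 weeks of running) and young controls (4 months, no running). The labels do not say whether libraries came from separate mice, so every p-value below measures the spread between libraries. How far each mouse ran, and the time between the last run and the dissection, are not stated in the labels.

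NRF2 is a transcription factor that KEAP1 holds in the cytoplasm and marks for degradation; electrophiles and oxidants modify KEAP1, and NRF2 then enters the nucleus and binds antioxidant response elements with small MAF proteins. Superoxide dismutases turn superoxide into hydrogen peroxide, which catalase, glutathione peroxidases and peroxiredoxins reduce to water. Peroxiredoxins are recharged by thioredoxin and thioredoxin reductase, and glutathione peroxidases by glutathione, which glutathione reductase recycles with NADPH. Working muscle makes superoxide at the mitochondria and at membrane NADPH oxidases. TXNIP, the thioredoxin-interacting protein, binds reduced thioredoxin and also lowers glucose uptake; its gene is switched on by MondoA and ChREBP, factors that sense glucose phosphates.

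RefSeq promoter windows (build GRCm38.p6, 250 bases before to 50 after the start) were found for 30 of the 36 members. They were searched on both strands for 3 motifs, because several results below concern Txnip and the genes that varied with Nfe2l2. The antioxidant response element core TGACNNNGC stood in 8 of the 30 members (26.7%; Nfe2l2, Sod1, Prdx1, Srxn1, Txnrd1, Gclm, Gstm5 and Mt2), against 14.0% of all 27025 genes with a window. The AP-1 and MAF motif TGANTCA stood in 6 members (20%; Prdx1, Srxn1, Glrx, Gstm5, Gstp1 and Mt2), against 8.97% of all genes, and the 2 motifs overlapped at 1 position each in Mt2 and Prdx1. The carbohydrate response element was written as the box CACGNG, a spacer of 5 bases and the same box again. It stood in 1 member, Txnip, and in 15 of all 27025 genes (0.0555%). The pattern has the form of the Txnip site, so neither this match nor this share is a separate result. Other spellings of the element were not searched. A gene could have more than 1 window (32851 windows in all), and a match in any of them counted. The Txnrd1 match stands before a start inside the gene, whose annotated span begins at chr10:82833951 on the + strand. A match is a run of letters and no measured binding. The windows of the members described most closely below are printed 5′ to 3′ on the strand of the motif, with the motif in capitals and the coordinates of the motif beside the name; the Txnip sequence is the 250 bases before its start.
Txnip, carbohydrate response element at chr3:96557872-96557888, + strand, 85 bases before the start: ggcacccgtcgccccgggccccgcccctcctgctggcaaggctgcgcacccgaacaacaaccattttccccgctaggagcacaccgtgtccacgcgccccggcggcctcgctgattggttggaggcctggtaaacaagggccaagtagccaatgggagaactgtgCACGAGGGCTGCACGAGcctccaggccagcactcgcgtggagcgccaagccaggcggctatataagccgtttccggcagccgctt
Nfe2l2, antioxidant response element core at chr2:75704895-75704903, − strand, 240 bases before the start: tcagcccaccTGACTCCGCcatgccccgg
Srxn1, antioxidant response element core at chr2:152105552-152105560, − strand, 28 bases after the start: tgtctcactcTGACCTAGCtgcccactgc
Srxn1, AP-1 and MAF motif at chr2:152105422-152105428, + strand, 102 bases before the start: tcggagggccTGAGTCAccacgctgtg
Srxn1, AP-1 and MAF motif at chr2:152105479-152105485, + strand, 45 bases before the start: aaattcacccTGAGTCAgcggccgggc
Txnrd1, antioxidant response element core at chr10:82859114-82859122, − strand, 92 bases before the start: cgtgtcagaaTGACAAAGCaaaaatccag
Gclm, antioxidant response element core at chr3:122245423-122245431, − strand, 134 bases before the start: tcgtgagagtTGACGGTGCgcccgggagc
Glrx, AP-1 and MAF motif at chr13:75839787-75839793, + strand, 99 bases before the start: taggaagtacTGACTCAtaccaaaatg

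Depth was 30.7 to 67.4 M reads per library assigned to genes (median 46.9 M; M is 1e+06), recovered from the deposited log2 values, and mitochondrial genes took 0.639% to 2.07% of them. All 10 myofiber markers, such as Acta1 and Ckm, had reads in the libraries. The sum of 12 markers of fibro-adipogenic progenitors (connective tissue cells) was 3565 to 6122 in old runners, 916 to 4083 in old controls, 6874 to 15676 in young runners and 1384 to 2603 in young controls, so these cells or their RNA were higher in young runners than in young controls with no overlap. The marker sums of endothelial cells, satellite cells and smooth muscle also stood higher in young runners than in young controls with no overlap, at 1666 to 6921 against 448 to 1243, 14258 to 17000.4 against 9727 to 13599, and 722 to 3064 against 65.7 to 529.8 normalised reads. The defining macrophage markers Adgre1 and Fcgr1 had no reads or were not listed, and likewise Ly6g and Cxcr2 of neutrophils, Cd4, Cd8a and Ms4a1 of lymphocytes and Adipoq and Plin1 of adipocytes. Of the markers on these lists, 10 of 12 for macrophages, 5 of 7 for neutrophils, 7 of 10 for lymphocytes and 3 of 7 for adipocytes did have reads. Macrophage marker sums were 615 to 1662 in old runners, 394 to 1200 in old controls, 928 to 2857 in young runners and 587 to 2579 in young controls. In bulk RNA, fewer cells of a type and less RNA per cell cannot be told apart. The part of these marker genes in the results below was not tested.

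Per length, sulfiredoxin, the enzyme that repairs overoxidised peroxiredoxins, had the highest level of the 36 genes. Levels are in RPKM, which is reads per kb of exon per M reads. Exons of all annotated transcripts of a gene were merged, giving 3.97 kb for Sod1 and 10.0 kb for Sod2. The order of the genes depends on these lengths. Srxn1 averaged 484 ± 193 RPKM over the 16 libraries (mean ± SD). It was followed by Gpx3, the secreted glutathione peroxidase, at 363 ± 109, by the metallothionein Mt1 at 297 ± 65.0 and by the phospholipid peroxidase Gpx4 at 278 ± 68.2. Srxn1, Gpx3 and Mt1 each lay within 1 SD of the next, whereas Gpx4 differed from Prdx3, the mitochondrial peroxiredoxin, at 200 ± 22.9, and Prdx3 from Gstm1 (158 ± 29.3), by more than its own SD. Among the superoxide dismutases the mitochondrial Sod2 had 34.3 ± 3.92 and the cytosolic Sod1 10.3 ± 1.39 RPKM. The lowest tested members were the glutathione synthetase Gss at 1.77 ± 0.458 and Prdx4, the peroxiredoxin of the endoplasmic reticulum, at 1.67 ± 0.812. The extracellular Sod3 (0.182 ± 0.255) and the cystine transporter Slc7a11 (0.0229 ± 0.0308) were too low to be tested, so 34 members entered each comparison.

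**Figure D1:**
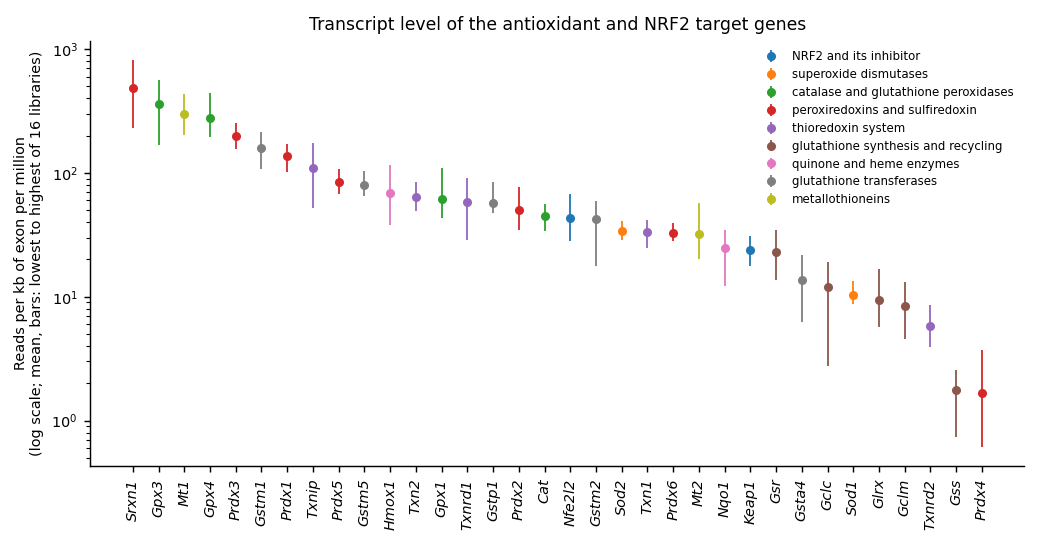
Level of the 34 tested members in RPKM (log axis); points are means over 16 libraries, bars run from the lowest to the highest library, and colours mark the role. Srxn1 at 484, Gpx3 at 363, Mt1 at 297 and Gpx4 at 278 lead, and Prdx4 at 1.67 is lowest.

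Averaged over both ages, Txnip fell and Gstm2 and Sod2 rose with running, a share of members close to that of all genes; the other 31 tested members did not pass. Each pair of groups was compared with limma on the deposited log2 values of all genes, with Benjamini-Hochberg adjusted p under 0.05 as the threshold. In the comparison averaged over both ages 3 of 34 members passed, against 9.92% of all 9356 genes tested, and 10 of 34 had an unadjusted p under 0.05, against 28.7% of all genes. In single age groups 0 of 34 members passed for running in old mice (background 0.128% of genes) and 0 of 34 in young mice (background 0.762%). Of the 34, 5 and 9 had an unadjusted p under 0.05, against 17.4% of all genes at each age. With limma-voom on the recovered reads 0 members passed in both. For age, 0 of 34 passed among runners (background 0.0213%) and 0 of 34 among controls (background 0.112%), and 0 with limma-voom. At an unadjusted p under 0.05 stood 3 and 6 members, against 4.91% and 11.2% of all genes. Averaged over runners and controls, age gave 1 called member, Gstm2, against 0.728% of all genes. No member, and no gene (0%), passed for the difference of the running effect between the ages, and limma-voom gave 0 genes. For that difference 2 of 34 members, Keap1 and Gstm2, had an unadjusted p under 0.05, against 6.25% of all genes. The comparisons share libraries, so they are not independent of each other.

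On the scale of the deposited values, the number of members whose 4 libraries of a group lay wholly above or below the 4 of the other group was near or below the background in 3 of the 4 pairs of groups. It was 2 of 34 for running in old mice (Txnip and Gpx4, both lower in runners; background 10.2% of genes), 4 of 34 for running in young mice (Gsr and Prdx6 higher, Txnip and Keap1 lower; background 11.5%) and 1 of 34 for age in runners (Keap1, higher in old; background 3.38%). For age in controls it was 6 of 34, all higher in old controls (Gpx3, Prdx6, Txnrd2, Txnip, Gstm1 and Gstm2), against a background of 7% in both directions. In normalised reads it was 5 of 34 for age in controls, since Prdx6 overlapped there (background 6.86%), and Prdx1 in old mice (lower in runners) and Sod2 in young mice (higher in runners) were apart in normalised reads alone. The median log2 difference of the 34 members was 0.000054 for running in old mice, where all genes had 0.03, and 0.13 for running in young mice, where all genes had 0.01. It was −0.02 for age in runners and 0.09 for age in controls, where all genes had 0.0049 and −0.0061.

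**Figure D2:**
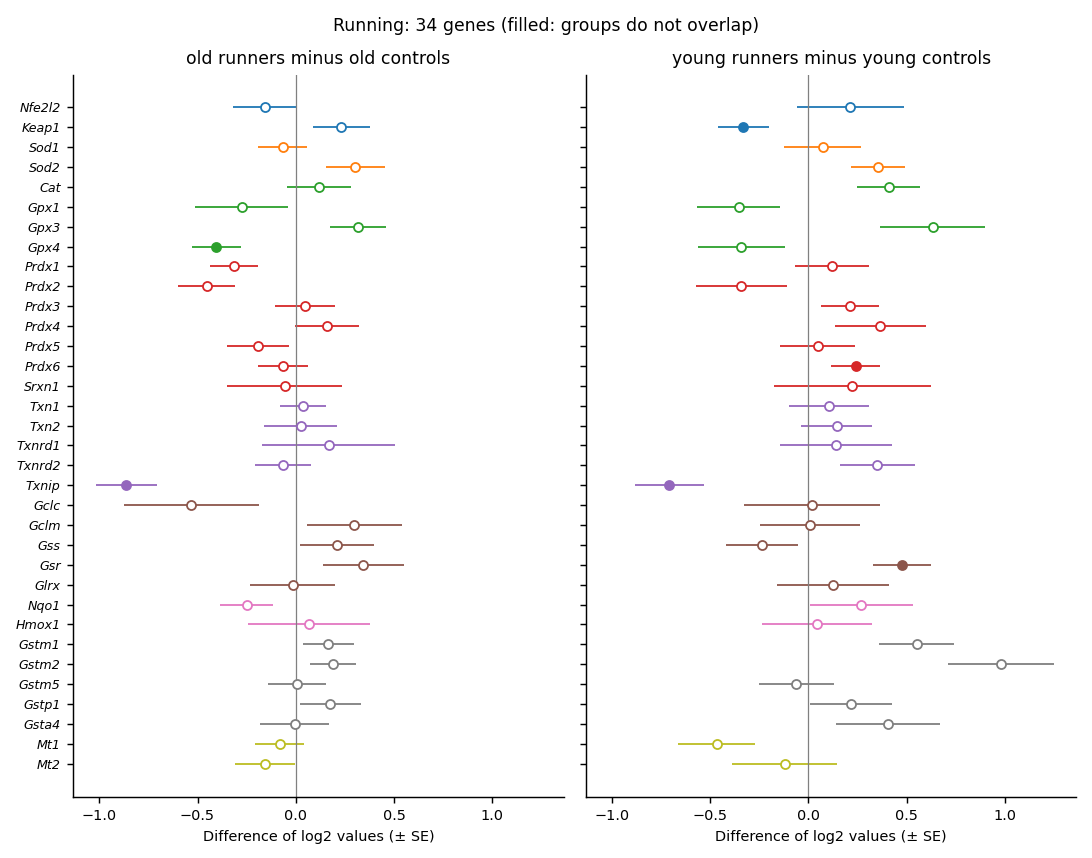
Difference of the deposited log2 values (± SE) between runners and controls for 34 members, in old mice (left) and young mice (right), 4 libraries a group; filled points are genes whose groups do not overlap on that scale and colours mark the role as in the plot of levels. Txnip lies lowest on both sides at −0.86 and −0.71, and Gstm2 highest on the right at 0.98.

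In the thioredoxin system the inhibitor Txnip fell in runners, and no thioredoxin or thioredoxin reductase passed the test. Txnip lies on mm10 chr3:96557957-96561883, + strand. It had 9768, 10979, 15360.3 and 12132 normalised reads in the 4 old runners, against 25026, 23966, 20205 and 19643 in the 4 old controls. In young mice it had 13284, 9064, 8196 and 10762 normalised reads in runners, against 14277, 16646, 16597 and 19557 in controls. All 8 runners thus lay below all controls of their age. The mean in runners was 0.543 of that in controls in old mice and 0.616 of it in young mice. The log2 difference was −0.86 ± 0.156 (SE) in old mice (limma, adjusted p = 0.0639) and −0.71 ± 0.177 in young mice (adjusted p = 0.0880), and averaged over both ages it was −0.79 ± 0.118 (adjusted p = 0.0016). The averaged difference passed under all 23 alternatives tried (−0.85 to −0.74), the one in old mice under 4 of 15 and the one in young mice under 1 of 15. That in old mice passed when old control 1 was left out (−0.80, limma, adjusted p = 0.0357), with a stricter filter on low values (adjusted p = 0.0488), with each library centred on its median (0.0471) and with limma's library weights (0.0164). The running effect in old minus that in young mice was −0.16 ± 0.237 (adjusted p = 0.951). Old controls stood above young controls with no overlap, by 0.42 ± 0.150 (adjusted p = 0.320), and old runners stood above young runners by 0.23 without passing the test. The antisense gene Gm15441, whose exons overlap those of Txnip, had 0 to 50.6 normalised reads in any library.

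Thioredoxin itself, the thioredoxin reductases and the mitochondrial thioredoxin did not pass in any comparison. Txn1, the cytosolic thioredoxin, ranged from 1128 to 1990.0 normalised reads over the 16 libraries. Txnrd2, the mitochondrial thioredoxin reductase, had 1293, 1396, 1048 and 1553 normalised reads in old controls, against 786, 1039, 791 and 918 in young controls. These groups did not overlap, by a narrow margin, and the difference of 0.47 ± 0.163 had an adjusted p of 0.305. In old runners Txnrd2 had 1451, 1201, 1078 and 1215 reads, against 879, 1154, 1554 and 1193 in young runners, which overlap.

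A list of 9 further genes was chosen as glucose-sensing partners of Txnip and includes a gene of such a factor. Of these 9, 2 fell with running when both ages were averaged and 0 rose. Whether they share regulation with Txnip was not tested. Among all 9356 genes 9.92% were called, 454 of them lower and 474 higher in runners. Mlxipl, which encodes ChREBP, had 3021, 2964, 2789.8 and 2173 normalised reads in old runners, against 4433, 2736, 3368 and 4784 in old controls. It had 4057, 3558, 2274 and 3242 in young runners, against 4874, 5446, 6774 and 4684 in young controls, with no overlap in young mice and overlap in old mice. Its averaged log2 difference was −0.56 ± 0.134 (limma, adjusted p = 0.0185). Arrdc3, an arrestin of the same family as TXNIP, averaged 14188 ± 2920.2 in old runners and 20659 ± 1709 in old controls, and 15746 ± 3618 in young runners and 22719 ± 4633 in young controls (SD, n = 4 each); the averaged difference was −0.54 ± 0.136 (limma, adjusted p = 0.0230). Both passed under all 23 alternatives. The median over the 9 genes was −0.22, where all genes had 0.04.

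**Figure D3:**
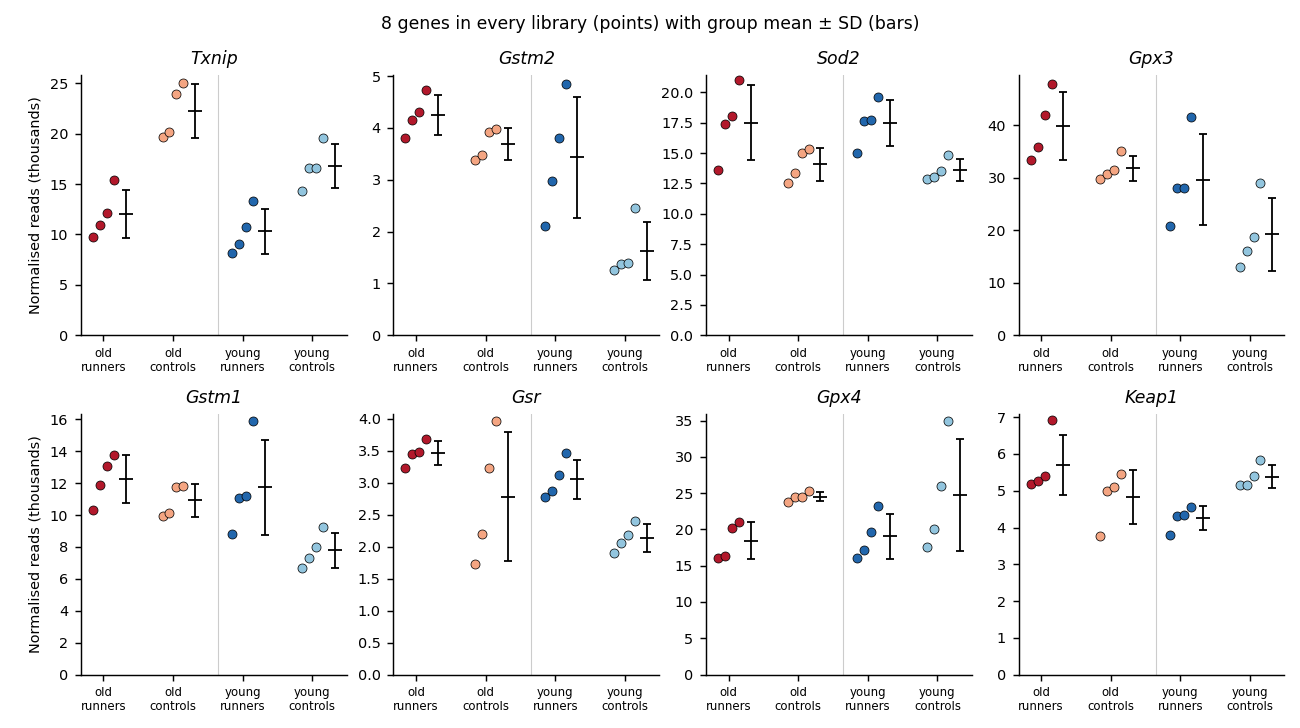
Normalised reads (vertical axes start at 0) of 8 members in every library; points are libraries, bars the group mean ± SD of 4. Txnip is lower in both runner groups than in the controls of the same age, and Gstm2 is lowest in young controls, where 3 of 4 libraries lie between 1255 and 1392 reads.

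Among the glutathione transferases, enzymes that join glutathione to electrophiles, the mu-class gene Gstm2 was low in young controls and higher in the other 3 groups. Gstm2 (mm10 chr3:107981702-107986453, − strand) had 4737, 4161, 4298 and 3803 normalised reads in old runners, against 3981, 3929.9, 3389 and 3476 in old controls. It had 2104, 3806, 4839.8 and 2982 in young runners, against 2462, 1392, 1378 and 1255 in young controls. The 2 groups of old mice overlapped, the 2 groups of young mice overlapped only through the lowest runner and the highest control, and old controls lay wholly above young controls. The mean of old controls was 2.28 times that of young controls, and the mean of young runners 2.12 times that of young controls.

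Averaged over runners and controls, Gstm2 rose with age by 0.72 ± 0.147 (limma, adjusted p = 0.0276), and averaged over both ages it rose with running by 0.58 ± 0.152 (limma, adjusted p = 0.0259). Within pairs of groups the age difference was 1.11 ± 0.194 in controls (limma, adjusted p = 0.0684) and 0.33 in runners, and the running difference was 0.98 ± 0.270 in young mice (adjusted p = 0.108) and 0.19 ± 0.118 in old mice (adjusted p = 0.439). The running effect in old minus that in young mice was −0.79 ± 0.305 (limma, unadjusted p = 0.0189, adjusted p = 0.718), so a difference between the ages did not pass. Young control 4, at 2462 reads, decided several of these values: without it the age difference in controls was 1.30 (limma, adjusted p = 0.00585) and the running difference in young mice 1.18 (adjusted p = 0.0467). The age difference in controls passed under 3 of 15 alternatives and the running difference in young mice under 2 of 15. The averaged running call was lost without old control 3 (adjusted p = 0.0505), young runner 2 (0.0604) or young control 8 (0.0519), and the averaged age call was lost under 12 of 23 alternatives, each of which left out 1 library, with adjusted p up to 0.0785; it held without young runner 2, young runner 3, old control 3 or young control 4.

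The neighbouring gene Gstm1 was also lowest in young controls, without a call. It had 13743, 13083, 10298 and 11881 normalised reads in old runners, against 11838, 11763, 9956 and 10102 in old controls. It had 8791, 11099, 15886 and 11167 in young runners, against 9254, 7973, 7288 and 6689 in young controls. Old controls lay above young controls with no overlap, by 0.50 ± 0.146 (limma, adjusted p = 0.250), and young runners lay above young controls by 0.55 ± 0.191 (adjusted p = 0.189) with overlap. Its averaged running difference was 0.36 ± 0.116 (limma, adjusted p = 0.0581) and passed under 5 of 23 alternatives, among them without young control 4 (0.40, adjusted p = 0.0416) or young runner 1 (0.42, adjusted p = 0.0280). With the trend of differences on exon length across all genes removed it was 0.47 and passed (limma, adjusted p = 0.00970); under that correction the Gstm2 difference for age in controls also passed (1.07, adjusted p = 0.0316). Of the 50-base stretches of its exons 18.9% also occur in other genes, against 5.65% for Gstm2, so reads of the closely related mu-class genes could be split or lost. The remaining transferases, Gstm5, the pi-class Gstp1 and the alpha-class Gsta4, which acts on the lipid peroxidation product 4-hydroxynonenal, did not pass in any comparison; their averaged running differences lay between −0.03 and 0.20, and that of Gstm5 was 0.10 with the length trend removed.

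Of the superoxide dismutases the mitochondrial enzyme was the one that rose with running. Sod2 (mm10 chr17:13006846-13040063, + strand) had 21041, 17389, 13574 and 18042 normalised reads in old runners, against 15335, 15013, 12548 and 13366 in old controls. It had 17666, 17717, 19612 and 14999 in young runners, against 13045, 13534, 12874 and 14862 in young controls. The lowest young runner and the highest young control were nearly level, and changed places on the scale of the deposited values, while 1 old runner lay inside the range of old controls. The averaged log2 difference was 0.33 ± 0.0975 (limma, adjusted p = 0.0424), made of 0.30 ± 0.148 in old mice and 0.35 ± 0.138 in young mice, and the mean of runners was 1.25 and 1.29 times that of controls. Over all 23 alternatives the limma adjusted p ran from 0.0197 to 0.293, and the call was lost under 16 of them. Among those 16 were the removal of the exon length trend, which left 0.22, and of any 1 library other than old runner 3, old control 1, young runner 4 or young control 5. The averaged age difference of Sod2 was 0.03 ± 0.0985, without a call. The cytosolic Sod1 had averaged differences of 0.0039 for running and 0.015 for age, which were −0.03 and −0.02 with the length trend removed.
The extracellular Sod3 stayed near the detection limit: it had 60.3, 25, 41.9 and 48 normalised reads in old runners, against 0, 0, 12 and 0 in old controls, and 169, 53.7, 0 and 63.1 in young runners, against 0, 0, 10.5 and 16.1 in young controls. It is a gene of connective tissue and vessels as well as of muscle, and the connective tissue marker sums given above stand beside these values.

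Catalase and the glutathione peroxidases did not pass in any comparison, and for running the 2 most abundant of them had differences of opposite sign. Gpx3 had 33348, 47860.2, 35913 and 41916 normalised reads in old runners, against 30671, 29784, 31541 and 35108 in old controls. It had 20749, 28071, 41558 and 28094 in young runners, against 29015, 16114, 13078 and 18699 in young controls. Old controls lay wholly above young controls, by 0.80 ± 0.216 (limma, adjusted p = 0.228), and the averaged differences were 0.63 ± 0.157 for age (adjusted p = 0.0897) and 0.47 ± 0.157 for running (adjusted p = 0.0638). Without young control 4 the age difference in controls was 1.01 and passed (limma, adjusted p = 0.0222), as did the averaged differences for age (0.74, adjusted p = 0.0127) and for running (0.58, adjusted p = 0.0161). Without young runner 1 the averaged running difference also passed (0.55, limma, adjusted p = 0.0359), and without young runner 3 the averaged age difference (0.72, adjusted p = 0.0338). With the exon length trend removed the averaged differences passed for running (0.56, limma, adjusted p = 0.0169) and for age (0.60, adjusted p = 0.0485). Of all alternatives tried, 4 of 23 gave a call of Gpx3 for averaged running, 4 of 23 for averaged age and 2 of 15 for age in controls.

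Gpx4, which reduces lipid hydroperoxides in membranes, had 21092, 16389, 20259 and 16105 normalised reads in old runners, against 24421, 24532, 25347 and 23798 in old controls. It had 19630.4, 17189, 23179 and 16109.8 in young runners, against 34979, 17628, 20127 and 26026 in young controls. The old groups did not overlap and the young groups did, with differences of −0.40 ± 0.126 in old mice (limma, adjusted p = 0.161) and −0.34 ± 0.221 in young mice (adjusted p = 0.447). The averaged difference of −0.37 ± 0.130 (limma, adjusted p = 0.0748) passed under 3 of 23 alternatives, among them without young control 5 (−0.45, adjusted p = 0.0254) or young runner 3 (−0.42, adjusted p = 0.0462). Of its exon stretches of 50 bases 34.7% also occur in the pseudogene Gpx4-ps2 or another gene, and Gpx4 is among the shorter members at 1.72 kb of exon. Across all genes the running difference in old mice was tied to exon length (Spearman rho = 0.339 across 9199 genes, which are not independent replicates), shorter genes being lower in runners, and with that trend removed the Gpx4 difference in old mice was −0.30 (limma, adjusted p = 0.258). Catalase averaged 5803 ± 797 normalised reads in old runners and 5389 ± 1107 in old controls, and 5929 ± 1048 in young runners and 4359 ± 302 in young controls (SD, n = 4 each). Its running difference was 0.12 in old and 0.41 ± 0.159 in young mice (limma, adjusted p = 0.224), and the cytosolic peroxidase Gpx1 had −0.28 and −0.36, also without a call.

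None of the 6 peroxiredoxins passed in any of the 7 comparisons, nor did Srxn1. Prdx6, which also has phospholipase activity, had 7582, 7533, 8055 and 7644 normalised reads in young runners, against 6929, 6686, 6003 and 6288 in young controls. The young groups did not overlap and differed by 0.24 ± 0.124 (limma, adjusted p = 0.345). In old mice Prdx6 had 8136, 7153, 5811 and 6739.9 in runners, against 6943, 7485, 6903 and 7855 in controls, which overlap; old controls stood above young controls by 0.19 ± 0.126 (limma, adjusted p = 0.608), wholly apart on the scale of the deposited values but not in normalised reads, where the lowest old control, at 6903, lay below the highest young control, at 6929.

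Prdx4 had the second smallest unadjusted p of the members for age in runners. It had 126, 147, 109.6 and 127 normalised reads in old runners, against 307, 206, 392 and 142 in young runners, which overlap through 1 library on each side. In controls it had 59.1, 163, 70.7 and 92 reads in old mice, against 144, 180.5, 142 and 176 in young mice. The differences were −0.41 ± 0.171 in runners (limma, adjusted p = 0.982) and −0.30 ± 0.194 in controls (adjusted p = 0.588). Fibro-adipogenic and satellite cell marker sums were also lower in old than in young runners with no overlap, at 3565 to 6122 against 6874 to 15676 and 11193 to 13680.1 against 14258 to 17000.4 normalised reads; their part in the Prdx4 value was not tested.

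Prdx2 averaged 5669 ± 1099 normalised reads in old runners and 7898 ± 835 in old controls, and 6147 ± 1239 in young runners and 7963 ± 2343 in young controls (SD, n = 4 each). Its averaged running difference was −0.40 ± 0.141 (limma, adjusted p = 0.0795) and passed under 2 of 23 alternatives, among them without young control 5 (−0.49, adjusted p = 0.0225). The exons of Prdx2 overlap those of Junb, an immediate early gene, and of Rnaseh2a, and the libraries kept no strand. Junb had 66806 to 95231 normalised reads in old runners, against 112448 to 143048 in old controls. In young mice Junb had 71115 to 107070 in runners, against 97241 to 130904 in controls, which overlap. Reads of Junb placed on Prdx2 cannot be told apart from those of Prdx2 itself.

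In glutathione synthesis and recycling, glutathione reductase came closest to a call. Gsr had 3447, 3683, 3226 and 3487 normalised reads in old runners, against 1726, 3223, 2199 and 3965 in old controls. It had 2772, 2865, 3457 and 3122 in young runners, against 1896, 2402, 2058 and 2179 in young controls. Young runners lay wholly above young controls, while old controls spread over the range of all other groups. The difference was 0.48 ± 0.146 in young mice (limma, adjusted p = 0.147), 0.34 ± 0.206 in old mice (adjusted p = 0.424) and 0.41 ± 0.128 averaged (adjusted p = 0.0508). The averaged difference passed under 5 of 23 alternatives, among them without old control 4 (0.50, limma, adjusted p = 0.0177) or young control 5 (0.43, adjusted p = 0.0434), with the exon length trend removed (0.43, adjusted p = 0.0388) and with the stricter filter (adjusted p = 0.0426).
The catalytic and modifier subunits of glutamate-cysteine ligase, Gclc and Gclm, and glutaredoxin, Glrx, varied widely within every group and did not pass. The coefficient of variation within groups averaged 41.4% for Gclc, 32.3% for Gclm and 33.5% for Glrx. Gclc ran from 538 to 3261 normalised reads over the 16 libraries, a span of 6.06 times. The cystine transporter Slc7a11 had 46.9, 10.4, 58.8 and 44.9 normalised reads in old runners and at most 30.1 in any other library, which is too low for a test.

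NRF2 and KEAP1 transcripts did not pass in any comparison. Nfe2l2 (mm10 chr2:75675513-75704641, − strand) had 6226, 7911, 7179 and 6076 normalised reads in old runners, against 6853, 6658, 7136 and 10635 in old controls. It had 10192, 7851, 5366 and 8614 in young runners, against 11378, 6229.8, 5954 and 4697 in young controls. All 4 groups overlap. Keap1 had 5189.9, 5401, 5277 and 6934 normalised reads in old runners, against 5096, 3760.0, 5007 and 5461 in old controls. It had 3804, 4566, 4327 and 4314 in young runners, against 5394, 5825, 5151 and 5157 in young controls. Young runners thus lay wholly below young controls, with a log2 difference of −0.33 ± 0.130 (limma, adjusted p = 0.228), and wholly below old runners (age difference 0.39 ± 0.130, adjusted p = 0.817). The running effect in old minus that in young mice was 0.56 ± 0.185 (limma, unadjusted p = 0.00749, adjusted p = 0.687).

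**Figure D4:**
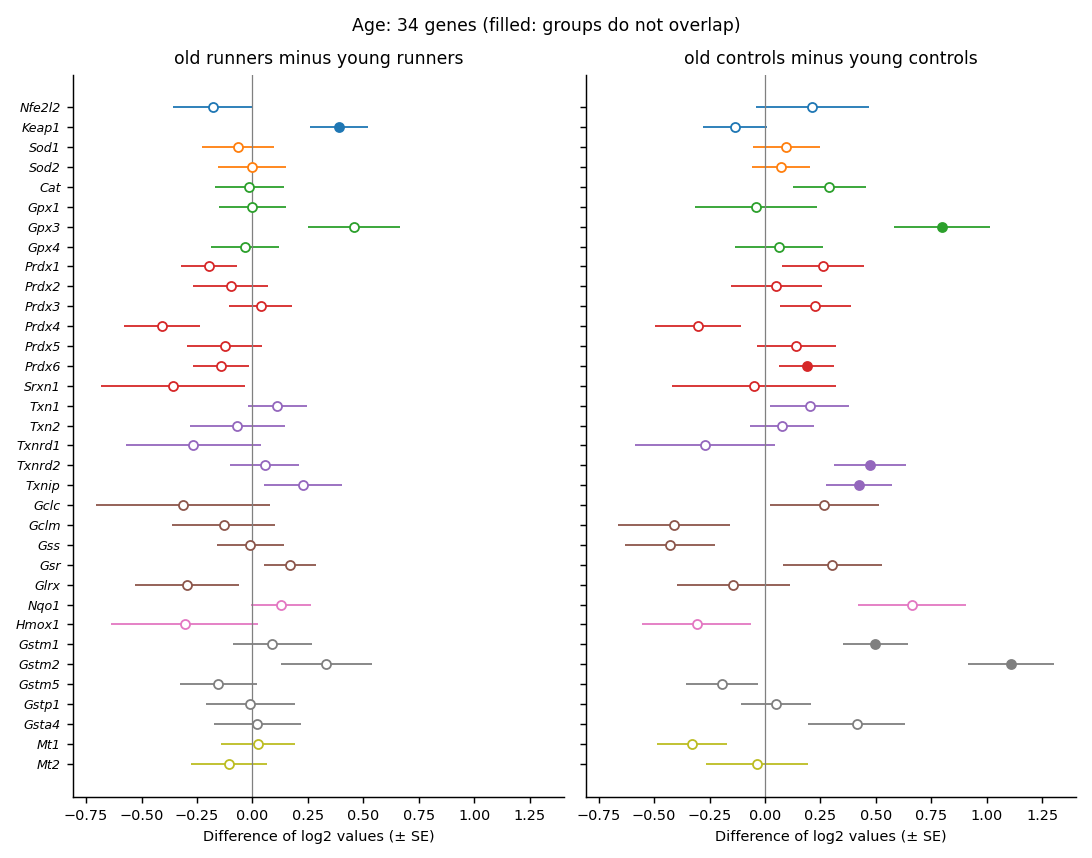
Difference of the deposited log2 values (± SE) between old and young mice for 34 members, in runners (left) and controls (right), 4 libraries a group; filled points are genes whose groups do not overlap on that scale. Gstm2 at 1.11 and Gpx3 at 0.80 lie highest among controls, and Keap1 at 0.39 is the filled point among runners.

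Although Nfe2l2 did not separate the groups, Srxn1, Txnrd1, Gclc and Gclm, which are textbook NRF2 targets, and Glrx varied with it from library to library. Pearson's r between log2 of normalised reads plus 1 of Nfe2l2 and of each of the 33 other tested members was computed over the 16 libraries, with permutation p-values (100000 permutations, 2-sided) adjusted by Benjamini-Hochberg over the 33 relations. Srxn1 had r = 0.896 (permutation p = 1e-05, the smallest that the permutations can give; adjusted p = 0.00033) and Spearman's rho = 0.906 (adjusted p = 0.00033). Glrx had r = 0.828 (adjusted permutation p = 0.00181; rho = 0.844, adjusted p = 0.00143), Gclc r = 0.716 (adjusted permutation p = 0.0187; rho = 0.850, adjusted p = 0.00143), Txnrd1 r = 0.707 (adjusted permutation p = 0.0201; rho = 0.729, adjusted p = 0.0175) and Gclm r = 0.686 (adjusted permutation p = 0.0224; rho = 0.679, adjusted p = 0.0311). These 5 also passed when each library was taken relative to the mean of its group, with r from 0.730 for Gclc to 0.924 for Srxn1. Of all 9107 genes compared, the share with a within-group r as high was 0.0659% for Srxn1, 0.362% for Glrx, 0.670% for Gclm, 1.99% for Txnrd1 and 3.04% for Gclc. Of these 5, Srxn1, Txnrd1 and Gclm hold the antioxidant response element core printed above, in Txnrd1 before a start inside the gene. Glrx holds the AP-1 and MAF motif alone, and Gclc had no window. The core also stands in Sod1, Prdx1, Gstm5 and Mt2, whose r with Nfe2l2 was −0.321, 0.424, −0.238 and 0.644. A link between the motif and r was not tested.

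Without the 2 libraries farthest from the median of Nfe2l2, young control 4 and old control 4, r was 0.874 for Srxn1, 0.795 for Glrx, 0.686 for Gclc, 0.668 for Txnrd1 and 0.618 for Gclm. Mt2 had r = 0.644 (adjusted permutation p = 0.0408; rho = 0.635, adjusted p = 0.0549) and did not hold within groups (adjusted p = 0.128), and its r without those 2 libraries was 0.434. Heme oxygenase, Hmox1, had r = 0.556 (adjusted permutation p = 0.118; rho = 0.512, adjusted p = 0.211) and Nqo1, the quinone reductase often used as an NRF2 readout, had r = 0.415 (adjusted permutation p = 0.403; rho = 0.476, adjusted p = 0.267), so neither passed. The median r over the 33 members was 0.0555. Among all 9107 genes compared, r for Srxn1 ranked 3 behind Trafd1 (0.926) and Atp6ap2 (0.909), and the next were Gabarapl1 (0.895) and Myf6 (0.891), so the likeness is not particular to the antioxidant genes. Glrx ranked 24, Gclc 122, Txnrd1 130, Gclm 159 and Mt2 223.

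The libraries with the most Nfe2l2 came from 3 of the 4 groups. Young control 4 had 11378 normalised reads of Nfe2l2 and 104659 of Srxn1, old control 4 had 10635 and 86198, and young runner 1 had 10192 and 96263. The lowest was young control 8 with 4697 of Nfe2l2 and 27409 of Srxn1. The 3 high libraries had depths of 44.3, 37.7 and 35.8 M reads, mitochondrial shares of 0.728%, 0.666% and 2.07% and fibro-adipogenic marker sums of 1384, 916 and 15676 normalised reads; young control 8 had 52.8 M reads, 0.865% and 1882. All points share these libraries and their depth.

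**Figure D5:**
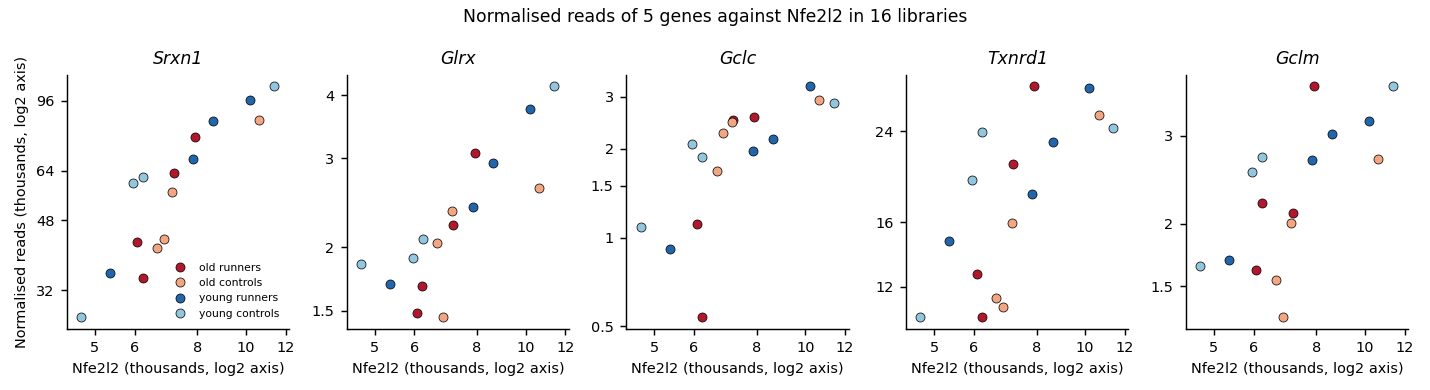
Normalised reads (both axes on a log2 scale) of Srxn1, Glrx, Gclc, Txnrd1 and Gclm against Nfe2l2; each point is 1 of 16 libraries, coloured by group. The points of all 4 groups are mixed along each trend, with r from 0.896 for Srxn1 to 0.686 for Gclm.

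Nqo1 and Hmox1 did not pass in any comparison. Nqo1 averaged 1772 ± 320.4 normalised reads in old runners and 2174 ± 135 in old controls, and 1583 ± 137 in young runners and 1371 ± 666 in young controls (SD, n = 4 each). Its age difference was 0.66 ± 0.243 in controls (limma, adjusted p = 0.332) and 0.13 in runners. The averaged age difference of 0.40 ± 0.143 (limma, adjusted p = 0.259) passed under 2 of 23 alternatives, among them without young control 4 (0.52, adjusted p = 0.0252). Hmox1, which breaks down heme, ran from 3030.3 to 9489 normalised reads over the 16 libraries. The metallothioneins, which bind zinc and copper, also gave no call: the averaged running difference was −0.27 ± 0.116 for Mt1 (limma, adjusted p = 0.134) and −0.14 ± 0.159 for Mt2 (adjusted p = 0.600). That of Mt1 passed under 2 of 23 alternatives, among them without young runner 3 (−0.35, limma, adjusted p = 0.0372). It was −0.15 with the exon length trend removed (limma, adjusted p = 0.406), where that of Mt2 was 0.04 (adjusted p = 0.887). In old mice the Mt1 difference was −0.08, and 0.05 with that trend removed. Mt1 had 15086 ± 1599 normalised reads in old runners and 16059.5 ± 1468 in old controls, and 15146 ± 3637 in young runners and 20783 ± 3568 in young controls (SD, n = 4 each).

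Further genes of the pathway were taken from 9 lists of 133 genes, of which 130 are in the tables. Averaged over both ages, 4 of the 102 tested rose with running and 5 fell, against 9.92% called over all genes. In single ages 1 of 109 rose in young mice (background 0.762%) and 0 of 102 passed in old mice (background 0.128%). In old mice 23 of 102 had an unadjusted p under 0.05, against 17.4% of all genes, and limma gave Ftl1 the smallest (−0.73 ± 0.133, adjusted p = 0.0669). Ferritin light chain, Ftl1, an iron store and a known NRF2 target, had 9875, 11630.3, 12898 and 11288 normalised reads in old runners, against 16237, 18737, 20819 and 21478 in old controls. It had 13237, 10724, 13657 and 8583 in young runners, against 24223, 15319.6, 19674 and 14379 in young controls. All runners lay below all controls of their age, and the averaged difference was −0.69 ± 0.126 (limma, adjusted p = 0.00424).

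Nfe2l1, which encodes NRF1, a relative of NRF2 that drives proteasome genes, lay in the other direction. It had 21170.3, 30899, 27852 and 31514 normalised reads in old runners, against 18914, 7527, 10614 and 16951 in old controls. It had 19572, 25781, 27299.9 and 21480.3 in young runners, against 6407, 19824, 16120.3 and 14964 in young controls. The old groups did not overlap, the young groups overlapped through 1 control, and the averaged difference was 0.95 ± 0.216 (limma, adjusted p = 0.0137).

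Of 9 tested genes that supply NADPH, Idh2 and Me1 rose with running when both ages were averaged. Idh2, the mitochondrial NADP-dependent isocitrate dehydrogenase, had 7845, 10576, 9122 and 9267 normalised reads in young runners, against 4741, 4072, 3130.1 and 3584 in young controls, a difference of 1.21 ± 0.163 (limma, adjusted p = 0.0190). In old mice it had 11919.9, 8448, 8211 and 7149 in runners, against 7224, 8287, 5710.4 and 11850.3 in controls, which overlap. The low values of Idh2 were those of young controls, as for Gstm2, and its age difference in controls was 1.02 ± 0.216 (limma, adjusted p = 0.121). Its averaged running difference was 0.67 ± 0.141 (limma, adjusted p = 0.00933). For Idh2 the running effect in old minus that in young mice was −1.07 ± 0.281 (limma, unadjusted p = 0.00139, adjusted p = 0.547). Malic enzyme, Me1, averaged 15432 ± 1499 in old runners and 9564 ± 1469 in old controls (SD, n = 4 each). In young mice it averaged 16135 ± 2957 in runners and 14846 ± 1963 in controls (SD, n = 4 each). Its running difference was 0.68 ± 0.138 in old mice (limma, adjusted p = 0.0888) and 0.39 ± 0.108 averaged over both ages (adjusted p = 0.0322).

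The other called genes were the zinc transporter Slc39a14 (0.73 ± 0.213, limma, adjusted p = 0.0400), higher in runners, and the selenoprotein Selenof (−0.42 ± 0.105, adjusted p = 0.0233) and the transcription factor Cebpd (−0.47 ± 0.142, adjusted p = 0.0458), lower in runners. Cebpd was taken from a list of 14 glucocorticoid targets, of which 13 were tested and 1 fell. No gene passed for running among the 15 tested of the other glutathione enzymes or the 6 tested sources of reactive oxygen. For age averaged over runners and controls, monoamine oxidase B, Maob, a source of hydrogen peroxide, rose by 0.79 ± 0.170 (limma, adjusted p = 0.0418) and the fatty acid transporter Cd36 by 0.48 ± 0.104 (adjusted p = 0.0423). These were 2 of 100 tested, against 0.728% of all genes. In age comparisons within runners or within controls 0 of 103 and 0 of 102 passed (background 0.0213% and 0.112%). At an unadjusted p under 0.05 stood 5 and 15, against 4.91% and 11.2% of all genes. In runners the smallest p-values were those of the microsomal transferase Mgst1 (0.52 ± 0.136, limma, adjusted p = 0.552) and Sesn1 (0.55 ± 0.181, adjusted p = 0.806).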

How the data were processed

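Bulk RNA-seq was made from 10 ng of total RNA with SMART-Seq v4 and Ovation Ultralow chemistry, which keep no strand. The submitters' processing notes name Trim Galore, STAR, featureCounts of Subread, DESeq2 and the build mm10; the sources used here give neither tool versions nor the annotation. The authors deposited variance-stabilised log2 values in 4 tables, each holding 1 pair of groups, in which low genes are pressed towards a floor. Turned back to a linear scale, 100% of values were whole reads (tolerance 0.02). These reads, divided by median-of-ratios size factors over 16 libraries, are the normalised reads. They carry no molecular identifiers. By title, 6 columns were matched to samples, and 10 columns to their group only; library numbers are those of the columns.

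limma 3.58.1 in R 4.3.3 (eBayes with a trend, 2-sided) tested genes that exceeded the floor by 1 or more in 4 or more libraries, and Python 3.11.15 with scipy 1.17.1 did the rest. The script was tested on simulated data. Positions are from GENCODE M21. Members named with all libraries were those called, those without overlap and the 2 with the smallest p in each pair of groups; the genes compared with Nfe2l2 and Sod3 and Slc7a11 were added after their values were seen. The members and lists were chosen with earlier results of these data known.

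The numbers 1 to 4 of runners were checked for pairing: deviations of libraries with the same number correlated at −0.240, 0.0924, −0.398 and −0.0442, which gave no sign of pairing. With 4 libraries a group the check cannot exclude it.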

Additional observations from a re-analysis of the deposited data

Results flagged for a closer look

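Of 144 sets of 4 libraries (36 genes in 4 groups), 11 held 1 library far from the other 3 by Dixon's criterion. About 1 in 20 would do so for independent, normally distributed values. These sets share libraries, so that rate is no background here. Where 1 library has reads and the rest have 0, the flag is certain, as for Sod3 and Slc7a11 in old controls. Old control 4 stood high for Nfe2l2 at 10635 normalised reads and for Slc7a11 at 15.3. Young control 4 stood high for Glrx at 4168 and for Gstm2 at 2462. Young runner 3 stood high for Sod1 at 2689 and for Gstp1 at 6505. Old runner 4 stood high for Keap1 at 6934, old runner 1 for Prdx2 at 7305, old control 2 for Prdx5 at 10490.1, old control 3 for Sod3 at 12 and young runner 4 for Slc7a11 at 6.69. The Gstm2 results are given without young control 4 in the text above.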

How the results depend on the processing

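The number of called members kept within 1.5 times its value under every alternative for age in runners (0) and for the difference of the running effect (0). With limma's library weights it was 2 for running in old mice (7.34% of all genes), 7 for running in young mice (13.1%), 4 for age in controls (4.69%), 10 for averaged running (27.2%) and 4 for averaged age (7.16%). With the stricter filter it was 1 for running in old mice (0.415% of all genes) and 5 of 32 for averaged running (13.5%), and with median centring 1 for running in old mice (0.245%). With the exon length trend removed, an alternative added after seeing the data, it was 1 for age in controls (0.249%), 5 for averaged running (10.7%) and 2 for averaged age (0.853%). Leaving out 1 library gave 0 to 1 for running in old mice, 0 to 1 for running in young mice, 0 to 2 for age in controls, 1 to 6 for averaged running and 0 to 3 for averaged age. Averaged running gave 1 without old control 3 (6.21% of all genes called), young runner 2 (3.95%) or young control 8 (6.54%), and 6 without young control 5 (13.7%). The share of all genes called for averaged running was 8.64% without young control 4, 8.98% without old control 4, 9.59% without young runner 1 and 11.5% without young runner 3. Without young control 4 that share was 1.48% for averaged age, 0.537% for age in controls and 1.73% for running in young mice. No called difference turned direction. Of the 238 differences of tested members over the 7 comparisons, 87 changed sign under at least 1 alternative, 23 of them with the exon length trend removed; none of the 87 was called as reported (adjusted p of 0.600 or more), or in the alternative that turned it. The cause of these changes was not tested. A replicate block on the runner numbers gave 0 members for age in runners, as without it, and 0 genes in all, against 2. No paired analysis was possible for the controls or for averaged age because their columns share 1 number only.

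Sod2 kept its averaged call in 7 of 23 alternatives, Cebpd in 9, Slc39a14 in 10, Me1 in 15, Selenof in 21 and Gstm2 in 20; Ftl1, Mlxipl, Arrdc3, Nfe2l1 and Idh2 kept theirs in all 23. For averaged age Maob kept its call in 9 and Cd36 in 6, and Idh2 in young mice in 10 of 15.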
